A study of Tachysurus vachellii with 6 samples.

Results

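The genes described here encode the machinery of autophagy, by which a cell encloses part of its own content in a membrane and delivers it to the lysosome, and of mitophagy, the same process directed at mitochondria. They were chosen by name. A gene of the deposited table was included if its symbol belonged to the ATG, ULK, WIPI, GABARAP, MAP1LC3 or BNIP3 families or to a set of 13 further autophagy and mitophagy genes, or if its description contained the words autophagy-related protein. An FPKM of at least 1 in 3 or more libraries was also required, FPKM being fragments per kilobase of transcript, scaled to the library total. In all 40 of 28288 genes were chosen, 38 by symbol and 2 by description alone, and 0 genes with a fitting name were lost to the FPKM requirement.

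Poly(A) RNA of the gill was sequenced in hybrid yellow catfish from a cross of Tachysurus fulvidraco (female) with Pseudobagrus vachellii (male). The hypoxia group spent 96 h at 1.5 mg/L dissolved oxygen and the normoxia group 96 h at 6.5 mg/L. Fish of both groups had been fasted for 24 h before the trial. Each group had 9 fish, whose RNA was mixed in sets of 3 fish into 3 libraries, so that a value is a mean over 3 fish and the spread is one between pools.

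Autophagy is started by the ULK1 kinase complex. A lipid kinase complex around beclin-1 then marks a membrane, which grows with lipid brought by ATG2 and ATG9 proteins, and small ubiquitin-like proteins of the ATG8 family (LC3 and GABARAP) are attached to it by a chain of conjugating enzymes. Cargo receptors bind both the cargo and the ATG8 proteins. On mitochondria this role is taken by receptors such as BNIP3, its relative BNIP3L and FUNDC1, or is prepared by the kinase PINK1 and the ubiquitin ligase Parkin. In mammals BNIP3 is a well known target gene of hypoxia-inducible factor.

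Total counts were 44762764 to 54578326 in the hypoxia libraries and 46885400 to 55016223 in the normoxia libraries. Genes of cytosolic ribosomal proteins took 23.5% of the counts in hypoxia replicate 1, against 15.5% to 19.3% in the other 5 libraries. Each of the 40 genes had counts above 0 in 6 of 6 libraries. Markers of gill cells were present, among them krt18 of epithelium, foxi1 and atp6v1a of ionocytes, agr2 of mucous cells, tie1 and kdr of endothelium and ptprc of leukocytes.

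Of the 40 genes 1 rose and 2 fell in hypoxia and 37 did not pass the test. The prohibitin gene phb2 rose, and the mitophagy receptor gene bnip3 and the ATG16-2-like gene LOC113643625 fell. Called genes had an adjusted p under 0.05 in edgeR's quasi-likelihood test with Benjamini-Hochberg adjustment over the 15312 genes tested. The 3 calls make 7.50% of the 40 genes, and over all tested genes 9.54% were called, 5.39% higher and 4.15% lower. The count of autophagy genes called therefore lay near the background of the table. At an unadjusted p under 0.05 there were 11 of the 40 genes, or 27.5%, against 30.3% of all tested genes. DESeq2 called 3 higher and 6 lower, where it called 11.7% of all tested genes higher and 10.1% lower. For limma on log2(FPKM + 1) the numbers were 1 and 3 of the 40 genes, against 3.13% and 5.79% of all tested genes. With edgeR and a correction for transcript length they were 3 and 2, against 3.69% and 2.49%.

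The median log2 difference of the 40 genes was -0.10, against -0.04 over all tested genes, and 27 of the 40 had a value below 0, or 67.5% against 52.9%. A difference of less than 2-fold was fitted for 39 of the 40 genes. The median SE was 0.15 for the 40 genes and 0.21 for all tested genes. With library totals in place of TMM scaling (edgeR's trimmed mean normalization) the medians were -0.26 for the 40 genes and -0.20 for all genes. Without the FPKM filter they were -0.05 for the 40 genes and -0.08 for the 23313 genes then tested. The number of the 40 genes below 0 ran from 22, without the filter or with the length correction, to 36, with library totals or limma. With library totals or limma only phb2, wipi2, atg4b and fundc2 stayed above 0. Any other of the 40 genes given below with a value above 0 changed sign there. Deposited FPKM of the groups did not overlap in 3 genes with hypoxia above and 15 with hypoxia below. These are 7.50% and 37.5%, against 11.4% and 25.9% of all tested genes. After TMM scaling the numbers were 3 and 9, or 7.50% and 22.5%, against 18.7% and 18.5%. FPKM are given as deposited, without TMM scaling, so their ratio can differ from the fitted change beside them.

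**Figure D1:**
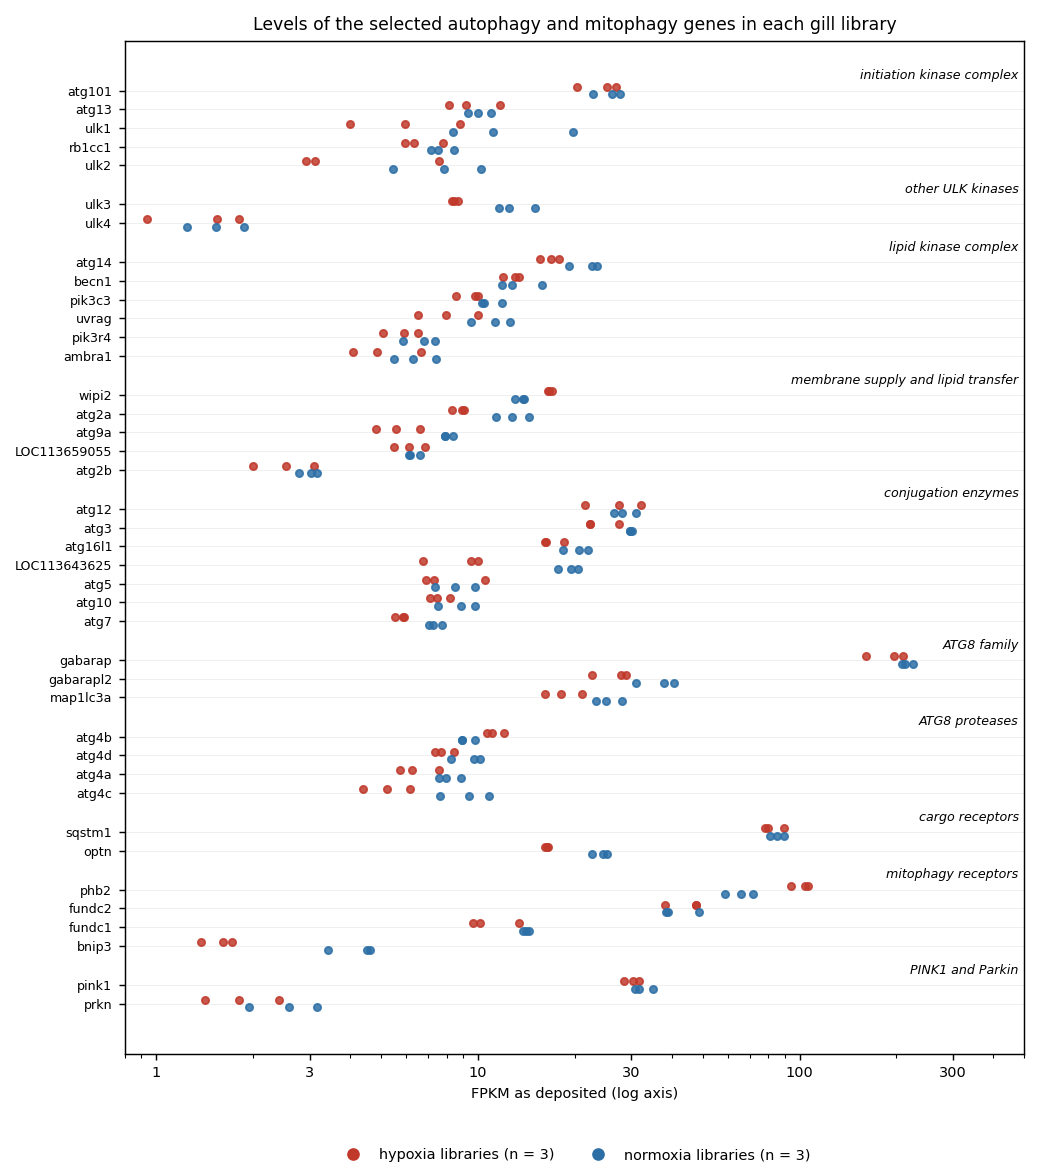
FPKM as deposited on a log axis for the 40 autophagy and mitophagy genes, 1 point per library, with the 3 hypoxia libraries above the 3 normoxia libraries in each row and the genes grouped by role. The levels run from 1.49 FPKM for ulk4 to 202 FPKM for gabarap on average, and the groups overlap in 22 of the 40 rows.

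The levels of the genes spread over more than 100-fold. The most abundant was gabarap, of the ATG8 family, with a mean of 202 FPKM over the 6 libraries and 23.6% of the summed FPKM of the 40 genes. It was followed by the cargo receptor gene sqstm1 at 83.9 FPKM and phb2 at 83.4 FPKM. The lowest were ulk4 at 1.49, the Parkin gene prkn at 2.22, atg2b at 2.77 and bnip3 at 2.88 FPKM. The median was 10.2 FPKM, against 7.63 FPKM over all tested genes. The gene nearest to the required level was ulk4, which had 0.938 FPKM in hypoxia replicate 1.

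No gene of the initiation kinase complex passed the test. The kinase gene ulk1 had 3.99, 5.96 and 8.78 FPKM in the hypoxia libraries, against 8.37, 19.7 and 11.2 FPKM in the normoxia libraries. The highest hypoxia library lay just above the lowest normoxia library, and normoxia replicate 2 stood above the other 2. Its log2 difference was -0.93 ± 0.35 (SE) with an edgeR adjusted p of 0.128, and -0.52 without normoxia replicate 2. The related kinase gene ulk2 was also uneven, with 7.59, 2.93 and 3.12 FPKM in hypoxia, against 10.2, 7.86 and 5.46 FPKM in normoxia (log2 difference -0.59 ± 0.46). These 2 genes had the widest spread within a group of the 40, with a coefficient of variation of 38.5% and 58.1% in hypoxia and 45.2% and 30.3% in normoxia, against medians of 12.6% and 9.46%.

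The partners of these kinases stayed close to 0. The scaffold gene rb1cc1 had a log2 difference of -0.05 ± 0.12, atg13 of 0.09 ± 0.14 and atg101 of 0.09 ± 0.18. Both atg13 and atg101 were of either sign under other scalings. The most abundant of them, atg101, averaged 24.1 ± 3.40 FPKM in hypoxia and 25.5 ± 2.55 FPKM in normoxia (SD, n = 3 each, as for all means here). For this complex edgeR gave 0 calls, with 1 gene at an unadjusted p under 0.05, DESeq2 called 1 lower (ulk1) and limma called 0. The further ULK kinases act largely outside this complex. Of them ulk3 had 8.68, 8.29 and 8.46 FPKM in hypoxia, against 11.6, 15.0 and 12.5 FPKM in normoxia, with groups that did not overlap (log2 difference -0.45 ± 0.15, edgeR adjusted p = 0.0956). The value of ulk4 was 0.02 ± 0.28. LOC113653827, described as ULK1-like and so a copy of the initiation complex, had -0.08 ± 0.21, with overlapping groups.

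The lipid kinase complex, which makes the phosphatidylinositol 3-phosphate that marks the growing membrane, had 6 tested genes, of which 0 were called by edgeR, by DESeq2 or by limma. None had an unadjusted p under 0.05 in edgeR, against 30.3% of all tested genes. With 9.54% of all tested genes called by edgeR, 0 calls among so few genes says little about the complex. The beclin-1 gene becn1 averaged 12.8 ± 0.761 FPKM in hypoxia and 13.5 ± 2.07 FPKM in normoxia, with a log2 difference of 0.08 ± 0.15. The catalytic subunit gene pik3c3 had -0.04 ± 0.12 and the regulatory subunit gene pik3r4 -0.03 ± 0.18. The most abundant member was atg14, whose product directs the complex to autophagosomes. It had 15.6, 17.9 and 16.9 FPKM in hypoxia, against 19.3, 23.5 and 22.6 FPKM in normoxia, with groups that did not overlap as deposited but did after TMM scaling. Its log2 difference was -0.21 ± 0.12 (edgeR adjusted p = 0.290). The values of uvrag, of a form of the complex on endosomes, and of ambra1, which binds beclin-1, were -0.28 ± 0.22 and -0.15 ± 0.17.

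Among the genes of membrane supply, 3 of 5 had an unadjusted p under 0.05, or 60.0% against 30.3% of all tested genes. Of the 5 genes 0 had an edgeR adjusted p under the threshold, against 9.54% of all tested genes. The gene wipi2, whose product binds the marked membrane and brings ATG16L1 to it, averaged 16.7 ± 0.236 FPKM in hypoxia and 13.6 ± 0.493 FPKM in normoxia. Each hypoxia library lay above each normoxia library. The log2 difference was 0.46 ± 0.12 (edgeR adjusted p = 0.0530), and DESeq2 called it with an adjusted p of 0.00602. In the other direction, the lipid transfer gene atg2a averaged 8.77 ± 0.406 FPKM in hypoxia and 12.9 ± 1.51 FPKM in normoxia (log2 difference -0.39 ± 0.13, edgeR adjusted p = 0.0925). The scramblase gene atg9a averaged 5.66 ± 0.882 FPKM in hypoxia and 8.06 ± 0.290 FPKM in normoxia (-0.36 ± 0.13, edgeR adjusted p = 0.112). A further gene described as autophagy-related protein 9A-like, LOC113659055, had 0.13 ± 0.13, and atg2b had -0.08 ± 0.17. Reads of atg9a and LOC113659055 could be split between them. DESeq2 called wipi2 higher and atg2a lower in this group, and limma called 0. Of all tested genes DESeq2 called 11.7% higher and 10.1% lower. The WIPI1-described copy LOC113663521 had -0.10 ± 0.21.

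The conjugation enzymes form a chain in which ATG7 activates, ATG3 and ATG10 carry, and a complex of ATG12, ATG5 and ATG16L1 completes the attachment of ATG8 proteins to lipid. Of the 7 genes in the group 1 fell, or 14.3% against 4.15% of all tested genes, and 0 rose. The gene that fell was LOC113643625, described as autophagy-related protein 16-2-like. In mouse cells ATG16L2 binds ATG5 and ATG12 as ATG16L1 does, but it is not recruited to the growing membrane. LOC113643625 lies on scaffold NW_020847785.1 from 5136469 to 5158870 on the plus strand. It had 6.75, 9.53 and 10.0 FPKM in hypoxia, against 17.8, 20.5 and 19.5 FPKM in normoxia. The highest hypoxia library was far below the lowest normoxia library. The gene was 1.98-fold lower in hypoxia (log2 change -0.98 ± 0.14, edgeR adjusted p = 0.0187). Its call was lost without normoxia replicate 2 and without normoxia replicate 3, where the log2 differences were -0.95 and -0.98.

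The counterpart atg16l1 had 16.3, 16.2 and 18.5 FPKM in hypoxia, against 18.4, 21.9 and 20.6 FPKM in normoxia, which overlap, and a log2 difference of -0.10 ± 0.11. The ratio of LOC113643625 to atg16l1 within a library does not depend on library scaling. It was 0.414, 0.589 and 0.541 in hypoxia, against 0.966, 0.933 and 0.945 in normoxia. In normoxia the 2 genes were at nearly the same level per length, and in each hypoxia library the first was below the second. A two-sided exact permutation test on the log2 ratio (n = 3 each) gave p = 0.10, the smallest that 3 against 3 libraries allow. The difference in log2 ratio was -0.90, near the log2 change of LOC113643625 itself (-0.98). As atg16l1 differed little, the ratio mostly restates that fall and is no separate support for it. This ratio, and the other ratios given here, were chosen after the values were seen.

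Markers of blood cell types differed in direction in the same libraries. The 3 matched T cell markers (cd3e, cd247 and lck) summed to 61.2 to 76.2 FPKM in hypoxia and 104 to 120 FPKM in normoxia. The 2 general leukocyte markers summed to 330 to 379 FPKM in hypoxia and 411 to 480 FPKM in normoxia, with log2 differences of -0.56 ± 0.18 for ptprc and -0.08 ± 0.19 for lcp1. None of these 5 passed the test, and none was at 0. The 2 B cell markers summed to 4.69 to 5.99 FPKM in hypoxia and 10.5 to 24.2 FPKM in normoxia, and the 1 that was tested, cd79a, fell. The 2 macrophage markers summed to 17.4 to 21.2 FPKM in hypoxia and 12.4 to 17.7 FPKM in normoxia, but differed in direction. Their log2 differences were 1.22 ± 0.50 for marco and -0.09 ± 0.14 for csf1r. The 2 neutrophil markers summed to 63.4 to 119 FPKM in hypoxia and 61.3 to 65.3 FPKM in normoxia. They also differed in direction, with 0.64 ± 0.30 for ncf1 and -0.31 ± 0.28 for csf3r. None of these 4 passed the test. The part of all these blood cell markers in the differences of the autophagy genes was not tested. In bulk gill RNA, fewer cells of a type and less RNA per cell cannot be told apart.

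The other conjugation genes gave log2 differences of 0.10 or less above 0 and of 0.19 or less below it. The most abundant, atg12, had 21.6, 32.1 and 27.6 FPKM in hypoxia, against 28.0, 26.4 and 31.1 FPKM in normoxia, with hypoxia replicate 1 lowest and hypoxia replicate 2 highest of all 6. Its log2 difference was 0.08 ± 0.19, of either sign under other scalings. The values were 0.10 ± 0.17 for atg5, -0.04 ± 0.16 for atg10, -0.15 ± 0.14 for atg3 and -0.19 ± 0.13 for atg7.

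**Figure D2:**
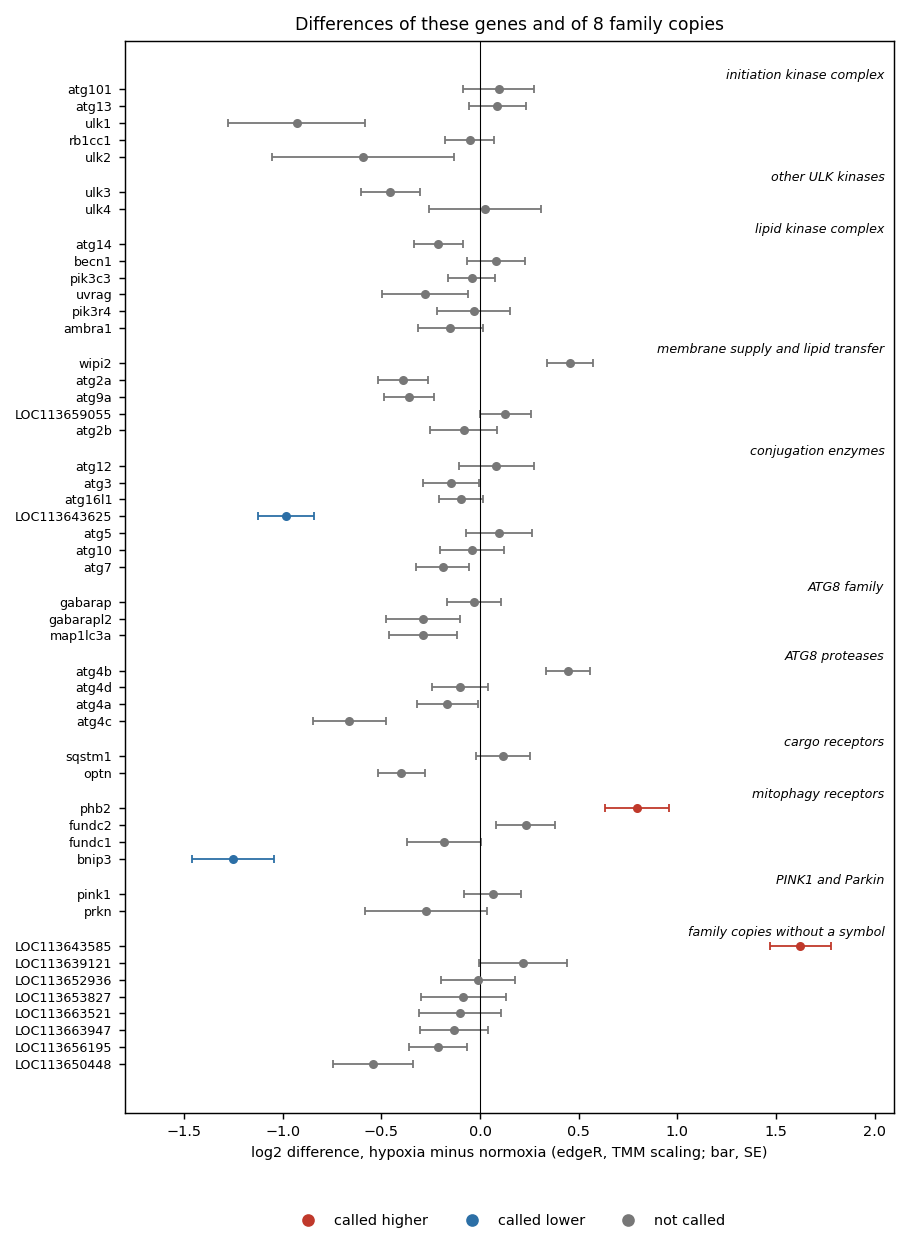
Fitted log2 difference, hypoxia minus normoxia, with its SE, for the 40 genes by role and for 8 tested family copies that carry no symbol. The red points are phb2 at 0.80 and LOC113643585 at 1.62, the blue points LOC113643625 at -0.98 and bnip3 at -1.25, and the grey points did not pass the test.

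The ATG8 family contributed 3 genes by the naming rule, of which edgeR, DESeq2 and limma each called 0. With 9.54% of all tested genes called by edgeR, 0 of 3 genes says little about the family. The most abundant, gabarap, had 161, 209 and 197 FPKM in hypoxia, against 225, 208 and 213 FPKM in normoxia. The groups overlapped, with hypoxia replicate 1 lowest. Its log2 difference was -0.03 ± 0.14, of either sign when a library or the FPKM filter was left out. For gabarapl2, the values were 28.9, 27.8 and 22.7 FPKM in hypoxia, against 31.0, 40.6 and 38.0 FPKM in normoxia (log2 difference -0.29 ± 0.19, edgeR adjusted p = 0.342). The LC3 gene map1lc3a had 18.2, 21.1 and 16.2 FPKM in hypoxia, against 23.4, 28.0 and 25.0 FPKM in normoxia (log2 difference -0.29 ± 0.17, edgeR adjusted p = 0.301). In both of these the deposited levels of the groups did not overlap, and the difference did not pass the test. After TMM scaling the groups of gabarapl2 overlapped, and those of map1lc3a did not.

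The naming rule leaves out genes of the same families that carry only a LOC identifier, so 11 such copies were found by their descriptions, and 8 of them were tested. Of the 8 copies 1 rose, or 12.5% against 5.39% of all tested genes, and 0 fell. The copy that rose, LOC113643585, is described as gamma-aminobutyric acid receptor-associated protein-like 1 (GABARAPL1), an ATG8 protein. It lies on the plus strand of scaffold NW_020847785.1 from 1413626 to 1419684. It had 111, 133 and 106 FPKM in hypoxia, against 43.9, 42.4 and 41.0 FPKM in normoxia. The 3 normoxia libraries were nearly equal, and each hypoxia library was more than 2-fold above them. The rise was 3.08-fold (log2 change 1.62 ± 0.15, edgeR adjusted p = 0.00607). Unlike the calls among the 40 genes, this one held in 6 of 6 fits that left out a library and in 14 of 14 alternatives, with adjusted p values up to 0.0357. DESeq2 and limma also called this copy alone.

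Seen over the 6 tested ATG8 genes together, with copies included, the summed level was 403, 460 and 407 FPKM in hypoxia, against 407, 396 and 386 FPKM in normoxia. These sums, of FPKM as deposited, overlap, while the makeup of the family differed. The TMM factors, 0.869, 0.933 and 1.04 in hypoxia and 1.03, 1.08 and 1.07 in normoxia, were not applied to the sums. A lower factor raises the scaled level, so the sums do not show that the total stayed equal. LOC113643585 made up 27.5%, 28.9% and 26.0% of the sum in hypoxia, against 10.8%, 10.7% and 10.6% in normoxia. The share of gabarap was 40.0%, 45.5% and 48.3% in hypoxia, against 55.3%, 52.5% and 55.2% in normoxia. A share also falls when another gene of the sum rises, and gabarap itself had a log2 difference of -0.03 ± 0.14. The ratio of LOC113643585 to gabarap was 0.620 ± 0.0757 in hypoxia and 0.197 ± 0.00583 in normoxia (n = 3 each, two-sided exact permutation p = 0.10, the smallest possible). The difference in log2 ratio was 1.65, near the log2 change of LOC113643585 itself (1.62). This ratio thus mostly restates the rise of that gene and is no separate support for it. The copies described as LC3B, LOC113639121, and as GABARAP, LOC113663947, had log2 differences of 0.22 ± 0.22 and -0.13 ± 0.17. The gene with the symbol gabarap is itself described as GABARAP-like. Of the LC3C-described copies, LOC113652480 had a count of 0 in all 6 libraries and LOC113636045 was under 0.3 FPKM in each.

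The ATG4 proteases cut ATG8 proteins before they are attached and release them afterwards. Of the 4 genes 0 were called by edgeR, against 9.54% of all tested genes. At an unadjusted p under 0.05 there were 2, of opposite direction, or 50.0% against 30.3% of all tested genes. The most abundant, atg4b, had 10.6, 11.1 and 12.1 FPKM in hypoxia, against 8.94, 8.93 and 9.80 FPKM in normoxia (log2 difference 0.45 ± 0.11, edgeR adjusted p = 0.0530). In contrast atg4c had 4.38, 6.13 and 5.21 FPKM in hypoxia, against 7.63, 10.9 and 9.36 FPKM in normoxia (log2 difference -0.66 ± 0.19, edgeR adjusted p = 0.0682). The groups did not overlap for either gene. DESeq2 called atg4b higher and atg4c lower, and limma called 0. Of all tested genes DESeq2 called 11.7% higher and 10.1% lower. The remaining atg4a and atg4d had -0.17 ± 0.16 and -0.10 ± 0.14, and the ATG4D-like copy LOC113650448 had -0.54 ± 0.20 (edgeR adjusted p = 0.128). In the table atg4b overlaps the thymidylate kinase gene dtymk on the opposite strand by 1141 bases. Without a stated strand setting their reads cannot be told apart there. LOC113659055, gabarapl2, ulk3 and sqstm1 overlap genes of the opposite strand by 554, 126, 95 and 7 bases.

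**Figure D3:**
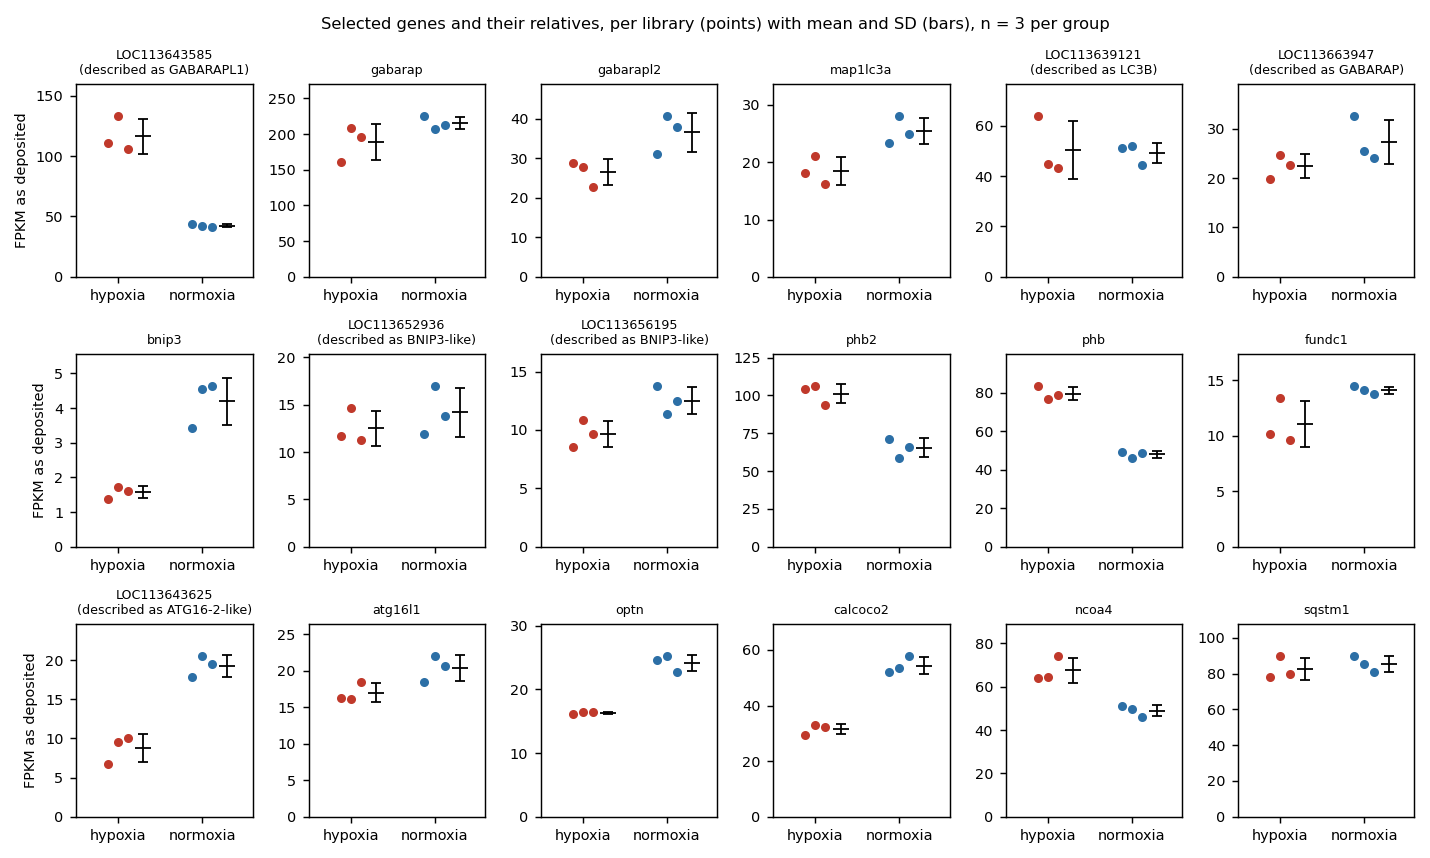
FPKM as deposited for 18 genes in 3 rows, with 1 point per library, the mean and the SD, the hypoxia group left of the normoxia group and each axis starting at 0. The top row holds the ATG8 family, in which LOC113643585 alone separates upward, at 106 to 133 against 41.0 to 43.9 FPKM. The middle row holds mitophagy receptors and prohibitins, and the bottom row the ATG16 genes and cargo receptors.

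The cargo receptor gene sqstm1, whose product carries ubiquitin-tagged cargo and is itself degraded by autophagy, did not pass the test. It had 78.2, 89.6 and 79.7 FPKM in hypoxia, against 89.5, 85.3 and 81.0 FPKM in normoxia, which overlap. The log2 difference was 0.11 ± 0.14, of either sign under other scalings. The optineurin gene optn had 16.1, 16.5 and 16.4 FPKM in hypoxia, against 24.5, 25.2 and 22.7 FPKM in normoxia. Its hypoxia libraries were nearly equal, and all lay below the normoxia libraries. The log2 difference of optn was -0.40 ± 0.12 (edgeR adjusted p = 0.0758), and it was called lower by DESeq2 and limma and in edgeR with library totals.

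The other cargo receptors were a list of 13 tested genes, of which edgeR called 1 higher and 1 lower. These are 15.4% of the list, against 9.54% of all tested genes. At an unadjusted p under 0.05 there were 6, or 46.2% against 30.3% of all tested genes. After TMM scaling the groups lay without overlap and with hypoxia below in 38.5%, against 18.5% of all tested genes. With hypoxia above the shares were 15.4% and 18.7%. DESeq2 called 2 higher and 3 lower, where it called 11.7% of all tested genes higher and 10.1% lower. For limma the numbers were 0 higher and 1 lower, against 3.13% and 5.79% of all tested genes. The gene calcoco2, of a receptor for ubiquitin-coated bacteria and damaged mitochondria, had 29.4, 33.0 and 32.2 FPKM in hypoxia, against 51.9, 53.6 and 57.7 FPKM in normoxia. It fell 1.54-fold (log2 change -0.62 ± 0.11, edgeR adjusted p = 0.0283). The gene ncoa4, of the receptor that takes the iron store ferritin to the lysosome, had 64.0, 64.6 and 74.0 FPKM in hypoxia, against 51.0, 49.6 and 46.0 FPKM in normoxia. It rose 1.54-fold (log2 change 0.62 ± 0.12, edgeR adjusted p = 0.0320). For both genes the groups lay well apart, but with 1 library left out calcoco2 was called in 0 of 6 fits and ncoa4 in 1 of 6. The call of ncoa4 was also lost with limma (adjusted p = 0.0532) and with library totals in edgeR (adjusted p = 0.0660). The median of the list was -0.28, against -0.04 over all tested genes.

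Among the mitophagy receptors bnip3 fell and phb2 rose. The bnip3 gene lies on scaffold NW_020847940.1 from 983869 to 990987 on the plus strand. It was near the floor of the list, with 1.38, 1.72 and 1.62 FPKM in hypoxia, against 3.42, 4.54 and 4.62 FPKM in normoxia. The counts behind these levels were 165, 244 and 237 in hypoxia, against 504, 574 and 613 in normoxia. Each hypoxia library was below each normoxia library by about 2-fold or more. The gene was 2.38-fold lower in hypoxia (log2 change -1.25 ± 0.21, edgeR adjusted p = 0.0240). With 1 library left out the log2 change stayed between -1.34 and -1.19, and 1 of 6 fits, that without normoxia replicate 1, kept the call.

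A pair of genes described as BNIP3-like proteins, the name of the related receptor BNIP3L, were more abundant than bnip3 and did not pass the test. LOC113652936 had 11.7, 14.7 and 11.3 FPKM in hypoxia, against 11.9, 16.9 and 13.8 FPKM in normoxia, with a log2 difference of -0.01 ± 0.19, of either sign under other settings. LOC113656195 had 8.58, 10.8 and 9.63 FPKM in hypoxia, against 13.7, 11.4 and 12.4 FPKM in normoxia, with -0.21 ± 0.15 (edgeR adjusted p = 0.364). The ratio of bnip3 to their sum was 0.0678, 0.0674 and 0.0774 in hypoxia, against 0.134 to 0.176 in normoxia (two-sided exact permutation p = 0.10, the smallest possible with n = 3 each). The difference in log2 ratio was -1.14, near the log2 change of bnip3 itself (-1.25). As the 2 relatives differed little, the ratio mostly restates the fall of bnip3 and is no separate support for it.

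The prohibitin gene phb2 lies on scaffold NW_020847885.1 from 282225 to 291110 on the minus strand. PHB2 forms rings with PHB in the inner mitochondrial membrane and in mammals binds LC3 when the outer membrane is broken. It had 104, 106 and 93.8 FPKM in hypoxia, against 71.6, 58.8 and 65.9 FPKM in normoxia. All hypoxia libraries lay above all normoxia libraries. The rise was 1.74-fold (log2 change 0.80 ± 0.16, edgeR adjusted p = 0.0344). Leaving out a library gave log2 values of 0.72 to 0.91 and kept the call in 2 of 6 fits. A further gene described as prohibitin-2, LOC113643243, had counts of 0 to 19 and was not tested.

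Its ring partner phb is outside the naming rule and rose as well. It had 83.1, 76.5 and 78.8 FPKM in hypoxia, against 49.4, 46.0 and 48.7 FPKM in normoxia (log2 change 0.89 ± 0.13, edgeR adjusted p = 0.0196). The ratio of phb2 to phb was 1.28 ± 0.0993 in hypoxia and 1.36 ± 0.0846 in normoxia, with overlapping values (n = 3 each, two-sided exact permutation p = 0.30). The receptor genes fundc1 and fundc2 did not pass the test. The level of fundc1, of a receptor that in mammalian cells acts in hypoxia-induced mitophagy, was 10.2, 13.4 and 9.63 FPKM in hypoxia, against 14.4, 14.1 and 13.8 FPKM in normoxia (log2 difference -0.18 ± 0.19, edgeR adjusted p = 0.553). For fundc2 it was 38.1, 47.8 and 47.6 FPKM in hypoxia, against 48.7, 38.5 and 39.1 FPKM in normoxia, where the groups overlapped (0.23 ± 0.15, edgeR adjusted p = 0.336).

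The genes of the PINK1 and Parkin route gave 0 calls in edgeR, DESeq2 and limma, and 0 had an unadjusted p under 0.05. Over all tested genes edgeR called 9.54% and 30.3% had such a p, so 0 of 2 genes says little about the route. The kinase gene pink1 had 31.8, 30.3 and 28.5 FPKM in hypoxia, against 34.9, 30.8 and 31.6 FPKM in normoxia. Its log2 difference was 0.06 ± 0.15, of either sign under other scalings. The ligase gene prkn was low, with 1.81, 2.42 and 1.42 FPKM in hypoxia, against 2.59, 3.16 and 1.94 FPKM in normoxia (log2 difference -0.27 ± 0.31, edgeR adjusted p = 0.594). In both genes the groups overlapped.

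Further genes of mitophagy and of mitochondrial fusion, fission and import were a list of 22 tested genes. Like the other related lists, it was chosen with earlier results of these data known, so its shares only describe the list. Of the 22 genes edgeR called 5 higher and 0 lower. At an unadjusted p under 0.05 there were 10, or 45.5% against 30.3% of all tested genes. DESeq2 called 6 higher and 0 lower, where it called 11.7% of all tested genes higher and 10.1% lower. For limma the numbers were 4 higher and 0 lower, against 3.13% and 5.79%. The median of the list was 0.17, against -0.04 over all tested genes. The 5 called higher by edgeR are 22.7% of the list, against 5.39% of all tested genes. Beside phb these were the genes of the import receptors tomm22 and tomm20, of the fusion protein mfn2 and of the outer membrane channel vdac2. The gene tomm22 had 53.9, 46.0 and 56.5 FPKM in hypoxia, against 30.1, 23.6 and 30.4 FPKM in normoxia (log2 change 1.05 ± 0.16, edgeR adjusted p = 0.0198). The gene mfn2, which tethers and fuses outer membranes and is tagged by Parkin in mammals, had 24.4, 26.0 and 33.8 FPKM in hypoxia, against 16.9, 17.3 and 12.7 FPKM in normoxia (log2 change 0.99 ± 0.17, edgeR adjusted p = 0.0240). The groups did not overlap in any of the 5 genes. Over the whole list, deposited FPKM lay without overlap and with hypoxia above in 27.3%, against 11.4% of all tested genes. The changes of vdac2 and tomm20 were 0.80 ± 0.18 and 0.68 ± 0.17, with edgeR adjusted p values of 0.0396 and 0.0491. The other fusion gene mfn1 had -0.23 ± 0.15, and the fission genes dnm1l and fis1 had 0.30 ± 0.10 and 0.02 ± 0.13. None of these 3 passed the test in edgeR (adjusted p = 0.104 for dnm1l), and DESeq2 called dnm1l higher. With 1 library left out between 1 and 3 of 6 fits kept the call for each of the 5 genes. Of all 14 alternatives 11 kept the call of tomm22, 10 that of phb, 8 those of mfn2 and vdac2, and 2 that of tomm20.

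Genes that control autophagy, a list of 21 tested genes around mTOR, AMPK and TFEB, gave 0 calls in edgeR, against 9.54% of all tested genes. At an unadjusted p under 0.05 there were 3, or 14.3% against 30.3% of all tested genes. DESeq2 called 1 lower (sesn1), where it called 10.1% of all tested genes lower, and limma called 0. The value of mtor, the growth kinase that restrains ULK1, was -0.03 ± 0.13, and that of prkaa1, a catalytic subunit of the energy-sensing kinase AMPK, was -0.03 ± 0.12. The gene tfeb, of the transcription factor that turns on lysosomal and autophagy genes, had -0.44 ± 0.31 (edgeR adjusted p = 0.379). Its levels were 4.76, 3.40 and 3.67 FPKM in hypoxia, against 4.70, 8.90 and 4.52 FPKM in normoxia. The groups of tfeb overlapped, and normoxia replicate 2 stood well above the others. The smallest p in the list was that of sesn1, at 16.7 ± 2.94 FPKM in hypoxia and 32.7 ± 10.0 FPKM in normoxia (log2 difference -0.79 ± 0.27, edgeR adjusted p = 0.102).

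Of the lysosome list of 43 tested genes edgeR called 1 lower and 0 higher, or 2.33% against 9.54% of all tested genes. At an unadjusted p under 0.05 there were 5, or 11.6% against 30.3%. The median of the list was -0.07, against -0.04 over all tested genes. DESeq2 called 1 higher and 2 lower, where it called 11.7% of all tested genes higher and 10.1% lower. For limma the numbers were 0 higher and 2 lower, against 3.13% and 5.79% of all tested genes. The gene called lower by each was mcoln1, of a calcium channel of the lysosome membrane, at 10.4, 9.11 and 10.8 FPKM in hypoxia, against 16.2, 16.1 and 15.9 FPKM in normoxia. Its log2 change was -0.51 ± 0.12 (edgeR adjusted p = 0.0466), and it was called in 0 of the 6 fits without 1 library. The membrane protein gene lamp1 had -0.16 ± 0.12. LOC113655469, described as LAMP1-like, had 11.4, 11.5 and 13.0 FPKM in hypoxia, against 16.9, 23.3 and 20.6 FPKM in normoxia. Its groups did not overlap, and the log2 difference was -0.60 ± 0.17 (edgeR adjusted p = 0.0682). DESeq2 and limma called this gene lower. The gene that DESeq2 called higher was LOC113637690, described as cathepsin L1, at 0.56 ± 0.18. Other factors of autophagosome growth and fusion, 27 tested genes, gave 0 calls in edgeR and limma. In edgeR 2 of them had an unadjusted p under 0.05, or 7.41% against 30.3% of all tested genes. DESeq2 called 1 of them lower (epg5), where it called 10.1% of all tested genes lower. The tethering complex HOPS, 6 tested genes, gave 0 calls by each of the 3 tools and 0 at an unadjusted p under 0.05. The shares over all tested genes were 9.54% called by edgeR and 30.3% at that p. Over the related lists together, 6 of 132 tested genes rose and 2 fell, or 6.06% against 9.54% of all tested genes.

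The calls among the 40 genes depended on the libraries used. Without normoxia replicate 2 and without normoxia replicate 3 none of the 40 genes was called. In those fits 68 and 95 genes of the whole table rose and 64 and 86 fell, against 825 and 636 with all libraries. Without hypoxia replicate 1 or 2 the ATG16-2-like gene alone was called. The direction of phb2, bnip3 and LOC113643625 was the same in each of the 14 alternatives.

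**Figure D4:**
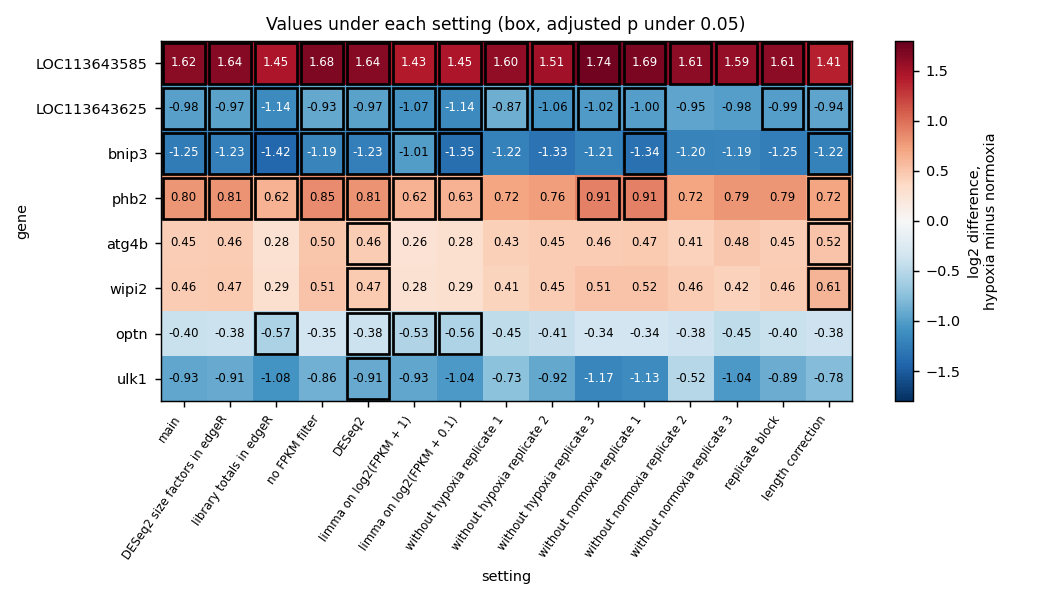
Log2 difference, hypoxia minus normoxia, of 8 genes (rows) under the main and the 14 alternative settings (columns), with a box where the adjusted p was under 0.05. LOC113643585 is boxed in all columns, LOC113643625 in all but those without normoxia replicate 2 or 3, while bnip3 and phb2 lose the box in most columns that leave out a library. Values of atg4b, wipi2, optn and ulk1 are boxed only with some tools or corrections.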

How the data were processed

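Gill RNA of 3 hypoxia and 3 normoxia pools of 3 fish was analysed from the table the authors deposited. The submitters' processing notes name cutadapt 1.9 and HISAT; counter, strand setting and genome build were not given in the sources used here. Each gene has a deposited count and an FPKM in each library, per the file headers; the authors' FPKM take account of transcript length and library size, and list a count of 0 at 0.0001. Columns were matched to samples by group code and number in the titles. No sequences of these genes were used here, and 0 of the 40 identifiers were in the RefSeq names at hand, which are of a different assembly.

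The 15312 genes that reached 1 FPKM in 3 or more of 6 libraries were tested on counts with edgeR 4.0.16 (glmQLFit and glmQLFTest, TMM, two-sided) in R 4.3.3, and called at a Benjamini-Hochberg adjusted p under 0.05. The SE is the log2 change divided by the square root of F. DESeq2 1.42.0 and limma 3.58.1 on log2(FPKM + 1) were alternatives, as were other scalings, no filter, a replicate block, a correction for transcript length and leaving out each library. Ratios within libraries were tested with exact permutation (scipy 1.17.1). The fit was also run on counts simulated with the dispersions it had estimated, and no result here rests on that run. Precision is limited by the spread between pools, with a common biological coefficient of variation of 0.329, and no pair of libraries in a group agreed within counting noise (chi-square per gene 137 or more). p-values describe the spread between pools, not between fish.

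The members, the related lists (control, other autophagosome factors, other cargo receptors, mitophagy and dynamics, lysosome, HOPS) and the cell type markers were chosen with earlier results of these data known. The rule named called genes, the most abundant gene and the smallest p of each role group, all mitophagy receptor and PINK1 and Parkin genes, and up to 4 called genes of each related list; ulk3 and ulk4 were set apart from the initiation complex. The family copies and the ratios were added after the table was available, and other genes are named to account for every member.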

Additional observations from a re-analysis of the deposited data

How the results depend on the processing

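Of the 40 genes, DESeq2 called 3 higher and 6 lower and the length correction 3 and 2, against 1 and 2 in the main comparison. With the replicate block 0 were higher and 1 lower. With 1 library left out the numbers ran from 0 to 1 higher and from 0 to 2 lower. The related genes, 6 higher and 2 lower in the main comparison, gave 1 higher and 0 lower with the replicate block, 1 lower with DESeq2 size factors in edgeR, 0 lower without the FPKM filter and 7 lower with DESeq2. With 1 library left out they ran from 0 to 5 higher and were 0 lower in all 6 fits. The counts over the whole table moved as well. In the main comparison 825 genes rose and 636 fell, with the replicate block 122 and 120, and with DESeq2 1792 and 1540. The numbers were 829 and 594 with DESeq2 size factors, 541 and 321 without the filter and 565 and 382 with the length correction. With 1 library left out 68 to 490 genes rose and 64 to 422 fell. The family copies gave 1 higher and 0 lower under each of the 14 alternatives. The causes were not tested.

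The median log2 difference of the 40 genes was -0.26 with library totals, -0.24 and -0.25 with limma and a pseudocount of 1 and 0.1, and -0.045 without the filter. With 1 library left out it ran from -0.13 to -0.08. Some differences near 0 changed sign. With library totals, limma with the larger and limma with the smaller pseudocount, the values were -0.088, -0.082 and -0.085 for atg101, -0.080, -0.085 and -0.089 for atg12, -0.11, -0.099 and -0.10 for pink1, and -0.055, -0.049 and -0.050 for sqstm1. The length correction gave -0.046 for atg101 and -0.23 for atg12. For gabarap the value was 0.021 without the filter. With 1 library left out the values ran from -0.070 to 0.18 for atg12, from -0.037 to 0.16 for pink1 and from -0.12 to 0.044 for gabarap.

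Correlations of the deviations of same-numbered libraries from their group means were -0.0445, 0.0226 and -0.0558, so the replicate numbers were not taken to pair the libraries. Correlated more with another number than with their own were hypoxia replicates 1 and 3.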

Other observations

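Transcript length, estimated from count, FPKM and library total, went with the log2 difference over all tested genes (Spearman's rho of -0.25 across genes, which are no independent replicates). The median log2 difference was 0.07 for the 9474 genes of at most 3123 bases and -0.17 for the 5838 longer genes. Among the 40 autophagy genes, whose median length was 3123 bases against 2570 bases over all tested genes, rho was -0.095, and the medians were -0.16 for the shorter 20 genes and -0.07 for the longer 20. With the length correction rho was 0.006 over all tested genes but 0.37 among the 40 genes. The medians were then -0.20 for the shorter 20 and 0.08 for the longer 20. In that fit wipi2 (4459 bases, log2 change 0.61, edgeR adjusted p = 0.0436) and atg4b (3173 bases, 0.52, edgeR adjusted p = 0.0456) were called higher beside phb2. Both wipi2 and atg4b are among the longer 20. The genes bnip3 and LOC113643625 were still called lower.

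Of the cell type markers not given beside a result above, hemgn of erythrocytes was called lower. It had 12.8 to 14.3 FPKM in hypoxia and 21.9 to 50.0 FPKM in normoxia (log2 change -1.30 ± 0.30, edgeR adjusted p = 0.0422). The summed levels of the 4 endothelial markers were 4.62 to 8.59 FPKM in hypoxia and 9.66 to 9.85 FPKM in normoxia. These markers differed in direction, and none of the 3 that were tested passed the test. Their log2 differences were 0.14 ± 0.19 for tek, -0.19 ± 0.21 for kdr and -0.84 ± 0.41 for tie1. The groups overlapped for tek and kdr but not for tie1, and egfl7 was too low to be tested. The mucous cell marker agr2 was at 140 to 327 FPKM in hypoxia and 350 to 676 FPKM in normoxia. It did not pass the test (edgeR adjusted p = 0.0928), and its groups overlapped after TMM scaling. The groups overlapped for the epithelial marker krt18, the muscle marker pvalb and the summed markers of fibroblasts and ionocytes. The ionocyte markers differed in direction, with 0.38 ± 0.29 for foxi1, 0.41 ± 0.23 for atp6v1a and -0.47 ± 0.18 for slc12a2. The ionocyte marker cftr was too low to be tested, with hypoxia below normoxia in FPKM without overlap. Fibroblast markers had -0.55 ± 0.20 (pdgfra), -0.19 ± 0.37 (dcn) and -1.10 ± 0.74 (col1a2). No tested marker of these 2 types passed the test. The part of these markers in the differences of the autophagy genes was not tested.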
